A study of Mus musculus with 12 samples.

Results

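The sterol and fatty acid synthesis genes examined here are 31 genes chosen by symbol for their place in lipid synthesis, with earlier results of these data known, and all 31 were found among the 35303 gene symbols of the count table. They comprise 4 regulators of the sterol regulatory element-binding proteins (SREBPs), 8 enzymes from acetoacetyl-CoA to squalene, 10 enzymes from squalene to cholesterol, the sterol transfer protein gene Stard4, 4 fatty acid synthesis enzymes and 4 desaturases. All 31 were among the 17676 genes with at least 2 counts over the 12 libraries, which were tested. Bulk poly(A) RNA sequencing compared 3 groups of myeloid-derived suppressor cells with 4 libraries each, described in the methods as independent biological replicates without saying whether they came from separate mice or cultures, so that p-values measure the spread between these libraries. MDSC libraries came from unmodified cells, MDSC-NP-Blk libraries from cells conjugated with blank PLGA nanoparticles (NPs), and CITED libraries from cells conjugated with rapamycin-loaded PLGA NPs. Every group was labelled wild type and was grown from the bone marrow of female C57BL/6 mice aged 6 to 10 weeks with IL-6 and GM-CSF (40 ng/ml each), collected as nonadherent cells on day 3 and purified by CD11b and Gr1. NPs were coupled by click chemistry to azido sugars taken up in culture, and whether the unmodified cells carried these sugars is not stated. RNA was taken after another 24 hours in medium with IL-6 (40 ng/ml). The tissue is given as CNS in the labels, although by the methods these were bone marrow cells in culture.

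Cells build cholesterol from acetyl-CoA through mevalonate, farnesyl diphosphate and squalene, and they build fatty acids from the same acetyl-CoA through malonyl-CoA, followed by elongation and desaturation. SREBP transcription factors, encoded by Srebf1 and Srebf2, are held in the endoplasmic reticulum by SCAP and INSIG proteins when sterols are plentiful and are released to the nucleus when sterols are scarce, where they raise transcription of most enzymes of both routes. Rapamycin inhibits mTORC1, a kinase complex that promotes SREBP activity in many cell types, and dividing cells use the products of both routes for new membrane.

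Because the members are known together as SREBP targets or regulators, their promoters were searched for the core of the sterol regulatory element, CACNCCAC, on both strands. The window ran from 250 bases before to 50 bases after the start of the GENCODE release 39 canonical transcript on GRCm39, and all 31 members had a window. CACNCCAC occurred in 8 of 31 member promoters (25.8%) and in 6.62% of 21770 protein-coding promoters. The longer form TCACNCCAC, whose matches are also matches of CACNCCAC, occurred in 3 members (9.68%) and in 1.34% of all promoters. Matches that lie before the start are shown for 6 members from 5 prime to 3 prime on the strand of the gene, with the match in capitals and its first base counted from the transcript start. GTGGCGTG in capitals marks a match on the other strand. The Fasn windows are shorter because they lie in an exon of other annotated Fasn transcripts.
Fasn at -145 (GRCm39 chr11:120715062-120715091, minus strand): cgcgcgggcatCACCCCACcggcggcggcg
Fasn at -59 (GRCm39 chr11:120714976-120715005, minus strand): tgtcagcccatGTGGCGTGgccgcgcgggg
Acaca at -97 (GRCm39 chr11:84063825-84063884, plus strand): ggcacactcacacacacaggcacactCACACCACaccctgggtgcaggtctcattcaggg
Acat2 at -152 (GRCm39 chr17:13179760-13179819, minus strand): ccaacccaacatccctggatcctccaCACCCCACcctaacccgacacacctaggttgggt
Acat2 at -24 (GRCm39 chr17:13179642-13179691, minus strand): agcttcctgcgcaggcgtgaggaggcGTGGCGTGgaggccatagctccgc
Hmgcs1 at -231 (GRCm39 chr13:120151732-120151784, plus strand): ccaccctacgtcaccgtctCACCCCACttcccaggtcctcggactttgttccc
Sqle at -198 (GRCm39 chr15:59186658-59186717, plus strand): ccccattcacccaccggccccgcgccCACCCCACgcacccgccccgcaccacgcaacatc
Insig1 at -171 (GRCm39 chr5:28276130-28276189, plus strand): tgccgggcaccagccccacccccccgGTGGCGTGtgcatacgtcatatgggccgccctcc

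Fads1, after its start, and Stard4, before it, also held a match and are not shown. The other letters searched were CCAAT, the NF-Y box, found in 67.7% of member promoters and 39.9% of all, and GGGCGG, the Sp1 and KLF box, found in 71% and 42.5%, or 53.8% of the promoters of genes tested here. The E-box CACGTG, which also reads as itself on the other strand, was found in 16.1% and 7.81%, or 9.34% of the promoters of genes tested here. The exact DR4 repeat bound by LXR occurred in 0 member promoters and in 0 of all 21770. A match describes these letters in this window only. Of the 6 fatty acid genes that changed most below, Fasn and Acaca held CACNCCAC in this window, and Scd1, Scd2, Fads2 and Elovl6 had no match there.

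Libraries held between 20604809 and 37855478 counts, of which the members took 0.522% to 0.554% without NPs, 0.329% to 0.344% with blank NPs and 0.305% to 0.32% in CITED. Normalized counts, given below, are counts scaled by library size and TMM factor to a library of mean size. TMM factors were 1.12 to 1.15 in MDSC and 0.921 to 0.947 in the NP groups, so that scaling by library totals alone moved the median log2 fold change of all genes against MDSC from -0.05 to -0.32 in CITED and from -0.03 to -0.29 in MDSC-NP-Blk. Within MDSC-NP-Blk, replicates 1 and 4 stood apart from replicates 2 and 3. Their counts differed by a chi-square of 15.7 to 21.8 per degree of freedom between these pairs and 5.69 to 5.91 within them, against 4.72 to 9.6 within the other groups. Longer transcripts were relatively higher in MDSC (Spearman's rho of 0.22 to 0.35 across 10547 genes, which are not independent) and lower in CITED (-0.34 to -0.19), with MDSC-NP-Blk at -0.42 to 0.09. Values without either MDSC-NP-Blk pair, and with a correction for transcript length, are given beside most of the members whose call or adjusted p changes side with them.

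The gate markers Itgam and Ly6c2 were abundant in every library, at 50128 to 71920 and 19071 to 34031 normalized counts, and Ly6g, which marks granulocytic cells, ranged from 3802 to 4986. Markers of T, B and NK cells summed to 52 to 152 counts, and Ncr1 was at 0 in every library. Among erythroid markers, Hbb-bt held 1 to 19.3 without NPs, 16.6 to 44.5 with blank NPs and 7.75 to 41.3 in CITED, and Hba-a1, Klf1 and Alas2 reached at most 27.1, 15.2 and 7.28. The erythroid and platelet list was carried by the platelet genes Pf4, Ppbp and Itga2b. The 8 progenitor and promyelocyte markers together held 64419 to 70857 normalized counts without NPs, 34313 to 37021 with blank NPs and 8426 to 9326 in CITED, and Mpo alone held 25138 to 28121, 7519 to 10013 and 1188 to 1351. The 10 proliferation genes together held 41606 to 47964, 23717 to 28724 and 12907 to 13548 in the same order, with all 10 past the threshold and lower in each of the 3 comparisons. Of the progenitor markers, 6 were lower and 0 higher in CITED against MDSC, 6 lower and 1 higher in MDSC-NP-Blk against MDSC, and 7 lower in CITED against MDSC-NP-Blk. The sums of both lists moved in the direction of most members, and their part in the results below was not tested. In bulk RNA, fewer cells that express a gene and less of its RNA per cell cannot be told apart. Mast cell and basophil markers were lower for 6 of 7 in CITED against MDSC and for 7 of 7 in CITED against MDSC-NP-Blk, and higher for 5 of 7 in MDSC-NP-Blk against MDSC. Granulocytic markers were higher for 9 of 10 and lower for 0 in MDSC-NP-Blk against MDSC. They were higher for 5 and lower for 3 in CITED against MDSC, and higher for 2 and lower for 5 in CITED against MDSC-NP-Blk. Of all genes, 19.9% were higher and 18.6% lower in MDSC-NP-Blk against MDSC. These shares were 22.2% each in CITED against MDSC, and 10.5% and 11.4% in CITED against MDSC-NP-Blk. In the same order, granulocytic markers summed to 849912 to 950986, 1215487 to 1281358 and 899953 to 1016990, monocytic markers to 52967 to 56166, 69194 to 72426 and 61155 to 64715, dendritic cell markers to 11561 to 12437, 8162 to 8627 and 10123 to 11059, and mast cell and basophil markers to 14112 to 15195, 16765 to 19312 and 9498 to 9865.

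Lipid synthesis genes were mostly lower in cells carrying NPs than in unmodified cells, with blank and with rapamycin-loaded NPs, and the median change was larger for the fatty acid genes than for the sterol enzymes. A gene was called at an adjusted p below 0.05 (edgeR's quasi-likelihood test, Benjamini-Hochberg over all genes tested) and a log2 fold change of at least 1 in size. In CITED against MDSC, 10 of 31 members were called lower, beside 6.70% of all genes, and 0 were called higher, beside 3.28%. Without the fold threshold, 20 members were lower (22.2% of all genes) and 5 were higher (22.2%), and the same counts had an unadjusted p below 0.05 (4425 and 4248 of all 17676 genes). DESeq2 gave the same counts, 10 lower and 0 higher. The median log2 fold change was -0.37 over the members and -0.05 over all genes. In MDSC-NP-Blk against MDSC, 6 members were called lower, beside 2.86% of all genes, and 0 higher, beside 1.88%, and DESeq2 called 7 lower and 0 higher. There, 24 were lower (18.6% of all genes) and 3 higher (19.9%) without the fold threshold, again with the same counts at an unadjusted p below 0.05 (22.0% and 22.3%), with a median of -0.43 against -0.03 over all genes. Both comparisons use the same 4 MDSC libraries and so share their error.

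The 8 fatty acid genes had a median log2 fold change from MDSC of -1.43 for CITED and -1.11 for blank NPs, with all 8 past the threshold and lower in both, 6 called in CITED and 5 in MDSC-NP-Blk. The 18 sterol enzymes had medians of -0.32 and -0.31, with 10 and 13 lower, 3 and 1 higher, and 4 and 1 called. All 4 CITED libraries lay below all 4 MDSC libraries for 20 members (21.2% of all genes) and above them for 5 (21.2%). For MDSC-NP-Blk these counts were 23 below (17.4%) and 2 above (18.1%). With library totals as the only scaling, the members past the threshold were 26 lower and 0 higher in CITED, beside 35.8% and 12.4% of all genes, and 28 lower and 0 higher in MDSC-NP-Blk, beside 34.5% and 9.40%, with a member median of -0.64 in CITED against the median of -0.32 over all genes.

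**Figure D1:**
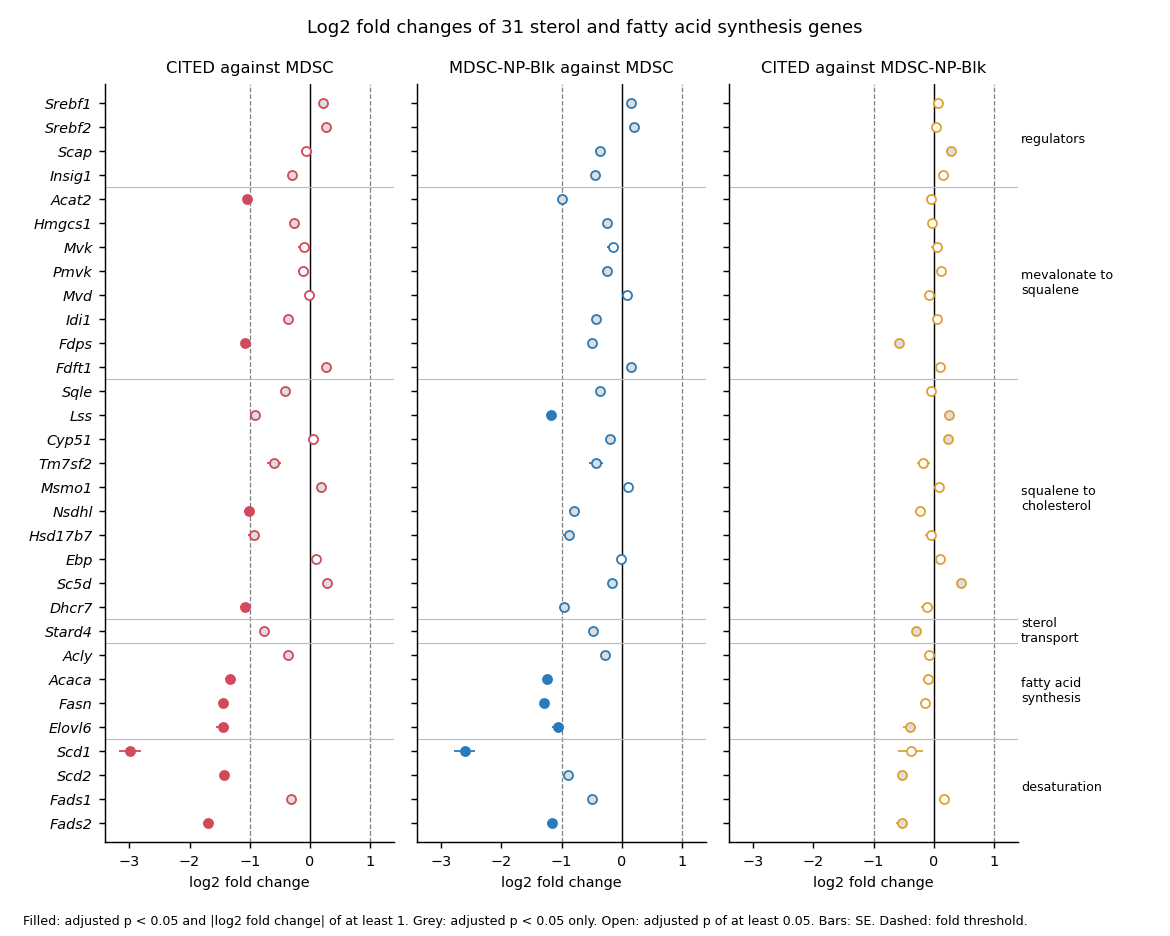
Log2 fold changes (x axis, no unit) of the 31 members (y axis, grouped by role) in the 3 comparisons, with bars for 1 SE of the fit over 12 libraries. Filled points are called, grey points pass the adjusted p of 0.05 only, and open points do not pass, and filled points number 10, 6 and 0 from left to right and all lie left of the dashed line at -1.

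The 4 regulators did not move together. Srebf1 (GRCm39 chr11:60089913-60113407, minus strand), which encodes the SREBP-1 proteins that favour fatty acid genes, held 2453, 2563, 2635 and 2431 normalized counts in MDSC replicates 1 to 4, 3054, 2740, 2482 and 2964 in MDSC-NP-Blk and 2898, 2872, 3106 and 2877 in CITED. CITED lay above MDSC without overlap, and MDSC-NP-Blk replicate 3 lay within the MDSC range. The log2 fold change was 0.22 in CITED (SE 0.0589, edgeR adjusted p = 0.002) and 0.16 in MDSC-NP-Blk (adjusted p = 0.034), where without replicates 1 and 4 it was 0.05 and did not pass. In MDSC-NP-Blk, Srebf1 also did not pass with the 8 libraries of the comparison alone, without MDSC replicate 4 or without MDSC-NP-Blk replicate 1. Without MDSC replicate 1, MDSC replicate 3 or MDSC-NP-Blk replicate 4, 2 members instead of 3 were past the threshold and higher in MDSC-NP-Blk. Srebf2 (chr15:82031382-82093201, plus strand), which encodes SREBP-2, the main activator of sterol genes, held 9178, 9278, 9581 and 9240 in MDSC, 10340, 11081, 10982 and 10808 in MDSC-NP-Blk and 10968, 10534, 11528 and 11524 in CITED. Both NP groups lay above MDSC, by 0.21 with blank and 0.26 with rapamycin-loaded NPs on the log2 scale (SE 0.0454 each). The rises of Srebf1 and Srebf2 held only under scalings that correct for composition, since with library totals alone Srebf1 had -0.11 and -0.05 and Srebf2 had -0.05 and -0.02 in MDSC-NP-Blk and CITED.

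Scap (chr9:110158229-110214024, plus strand), whose product escorts SREBPs out of the endoplasmic reticulum, held 632, 746, 676 and 656 normalized counts in MDSC, 491, 585, 564 and 465 in MDSC-NP-Blk and 619, 657, 605 and 697 in CITED. MDSC-NP-Blk alone stood below the other groups, with a log2 fold change of -0.36 against MDSC (SE 0.0851, edgeR adjusted p = 8.1e-04), whereas CITED against MDSC had -0.07 (adjusted p = 0.53). Insig1 (chr5:28276315-28283668, plus strand), which encodes a sterol-dependent retention factor and is itself an SREBP target with the promoter match shown above, held 2609, 2424, 2513 and 2412 in MDSC, 1693, 1777, 2080 and 1744 in MDSC-NP-Blk and 1960, 2184, 1949 and 2003 in CITED. It fell in both NP groups without overlap, with log2 fold changes of -0.45 for blank NPs (SE 0.0623) and -0.30 for CITED (SE 0.0622).

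Among the 8 genes from acetoacetyl-CoA to squalene, 4 were lower and 1 higher in CITED, and 5 were lower and 1 higher in MDSC-NP-Blk. Acat2 (chr17:13161367-13179641, minus strand), the cytosolic thiolase that makes acetoacetyl-CoA, held 1497, 1478, 1491 and 1477 normalized counts in MDSC, 756, 729, 776 and 728 in MDSC-NP-Blk and 632, 785, 752 and 725 in CITED. The NP groups overlapped each other and lay at 50.3% and 48.7% of MDSC by the fit, log2 fold changes of -0.99 (SE 0.0708) and -1.04 (SE 0.0713). Acat2 was thus the member just outside the fold threshold in MDSC-NP-Blk, where it was called with the length correction (-1.04), without replicates 2 and 3 (-1.02), without replicate 3 (-1.01), with the 8 libraries of the comparison alone (-1.01), with RLE factors, with DESeq2 and with library totals (-1.25). In CITED it lost its call without replicate 1 of CITED (-0.98). Other genes hold 22.3% of its 31-base words, mainly Acat3, and it overlaps Tcp1 on the other strand. Whether counting used strand is not stated, so reads of such pairs may not be told apart, which also touches Srebf1 (Rai1), Srebf2 (Shisa8), Scap (Ptpn23), Hmgcs1 (Nim1k), Fdft1 (Ctsb), Sqle (Washc5), Cyp51 (Akap9), Nsdhl (Cetn2), Acly (Odad4) and Acaca (Tada2a, Gm11437), beside others with noncoding partners.

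Fdps (chr3:89000888-89019213, minus strand), which encodes farnesyl diphosphate synthase at the branch between sterols and other isoprenoids, held 11686, 11035, 11631 and 11363 normalized counts in MDSC, 8279, 8126, 7889 and 8006 in MDSC-NP-Blk and 5193, 5797, 5355 and 5403 in CITED. No library of any group overlapped another group. Against MDSC the log2 fold change was -0.50 with blank NPs (SE 0.0462) and -1.07 for CITED (SE 0.0467, edgeR adjusted p = 1.1e-19). Of the 31-base words of Fdps, 14.6% occur in other genes. Its canonical transcript has 1306 bases, and with the correction for length it had -0.70 and -1.27.

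The other genes of this stretch moved less. Hmgcs1, the synthase for HMG-CoA, fell from 5307 to 5592 normalized counts in unmodified cells to 4277 to 4991 with blank NPs and 4324 to 4763 in CITED, log2 fold changes of -0.25 and -0.27. Idi1, the isopentenyl diphosphate isomerase, had -0.42 and -0.37, and 18.4% of its 31-base words occur in other genes, its pseudogenes among them. Fdft1, which encodes squalene synthase and shares 11.9% of its words, rose by 0.15 and 0.26. In MDSC-NP-Blk, Fdft1 no longer passed without replicate 1 or without replicates 1 and 4 (0.12 each), or with the 8 libraries alone (0.14). Nor did it pass there without MDSC replicate 4. Its enzyme commits farnesyl units to sterols, and its direction reversed with library totals alone (-0.11 and -0.02). The mevalonate kinase gene Mvk (-0.15 and -0.10) and the decarboxylase gene Mvd (0.08 and -0.01) did not pass in either comparison, and phosphomevalonate kinase, Pmvk, fell in MDSC-NP-Blk by -0.25 and had -0.12 in CITED (adjusted p = 0.19). With the length correction, Pmvk (-0.33) and Mvd (-0.16) passed in CITED, and without MDSC-NP-Blk replicates 2 and 3 Pmvk (-0.20) no longer passed in MDSC-NP-Blk.

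From squalene to cholesterol, 6 of 10 genes were lower and 2 higher in CITED, and 8 were lower in MDSC-NP-Blk, where Msmo1 and Ebp did not pass. Lss (chr10:76367298-76392976, plus strand), the lanosterol synthase gene, held 1838, 1607, 1719 and 1835 normalized counts in MDSC, 664, 800, 796 and 834 in MDSC-NP-Blk and 846, 946, 956 and 946 in CITED. MDSC-NP-Blk was the lowest group and no groups overlapped. The log2 fold changes of Lss were -1.18 for MDSC-NP-Blk (SE 0.0738, edgeR adjusted p = 4.5e-15), the only sterol enzyme called there, and -0.92 for CITED (SE 0.0733).

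Nsdhl (chrX:71961712-72002129, plus strand), a sterol C4 demethylation enzyme, held 1215, 1119, 1200 and 1009 normalized counts in MDSC, 609, 682, 721 and 617 in MDSC-NP-Blk and 522, 481, 631 and 621 in CITED. Both NP groups were below MDSC and overlapped each other. With a log2 fold change of -1.01 (SE 0.0876) in CITED, Nsdhl was the call nearest to the fold threshold there, and it fell to the other side with upper quartile factors and without MDSC replicate 1 or 3 or CITED replicate 1 or 2. In MDSC-NP-Blk it had -0.79. Hsd17b7 (chr1:169777093-169796813, minus strand), which acts in the same demethylation, was the nearest member outside that threshold. It held 1326, 1294, 1350 and 1400 in MDSC, 644, 838, 858 and 567 in MDSC-NP-Blk and 724, 728, 638 and 730 in CITED, with log2 fold changes of -0.93 in CITED (SE 0.0926) and -0.88 in MDSC-NP-Blk. Within MDSC-NP-Blk, replicates 1 and 4 were the lower pair, and the value was -1.16 with them alone and -0.66 with replicates 2 and 3 alone.

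Dhcr7 (chr7:143376740-143402149, plus strand), which encodes the reductase of the last step to cholesterol, held 1116, 995, 1120 and 1141 normalized counts in MDSC, 583, 665, 500 and 490 in MDSC-NP-Blk and 468, 523, 609 and 488 in CITED. The NP groups overlapped each other and were well below MDSC, with log2 fold changes of -0.96 (SE 0.0913) and -1.07 (SE 0.0924, edgeR adjusted p = 6.1e-12). Dhcr7 was called in MDSC-NP-Blk only when MDSC replicate 2, MDSC-NP-Blk replicate 2 or MDSC-NP-Blk replicates 2 and 3 were left out, or with library totals alone.

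Sqle, the squalene epoxidase gene and a rate-limiting step of sterol synthesis, fell from 3117 to 3252 normalized counts in unmodified cells to 2267 to 2667 with blank NPs and 2344 to 2408 in CITED, log2 fold changes of -0.37 and -0.41. Tm7sf2, a sterol C14 reductase gene that shares 11.4% of its words with others, Vps51 among them, had -0.43 and -0.60. The remaining genes of this stretch were near their MDSC level or above it. Msmo1, a C4 methyl oxidase gene, rose by 0.19 in CITED and had 0.10 in MDSC-NP-Blk, and with library totals alone it had -0.08 and -0.16. Sc5d, the lathosterol oxidase gene, rose by 0.29 in CITED and fell by 0.16 in MDSC-NP-Blk, and with library totals alone it had 0.01 and -0.42. Cyp51, the lanosterol demethylase gene, fell by 0.19 in MDSC-NP-Blk and had 0.05 in CITED, and Ebp, a sterol isomerase gene, had -0.01 and 0.10. With the length correction Cyp51 passed in CITED (0.19), and neither Cyp51 (-0.09) nor Sc5d (-0.07) passed in MDSC-NP-Blk, where both also missed it without replicates 1 and 4 (-0.11 each), and Tm7sf2 without replicates 2 and 3 (-0.25). Over all 31 members, 28 instead of 25 passed in CITED with that correction, and 25 instead of 27 in MDSC-NP-Blk. Of all 17676 genes, 4182 were then higher and 3555 lower in CITED, and 3554 and 3141 in MDSC-NP-Blk. Stard4, whose product carries sterols between membranes, fell from 4985 to 5604 in unmodified cells to 3521 to 3920 with blank NPs and 2969 to 3253 in CITED, log2 fold changes of -0.48 (SE 0.0523) and -0.76 (SE 0.0528), with no overlap between any groups.

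**Figure D2:**
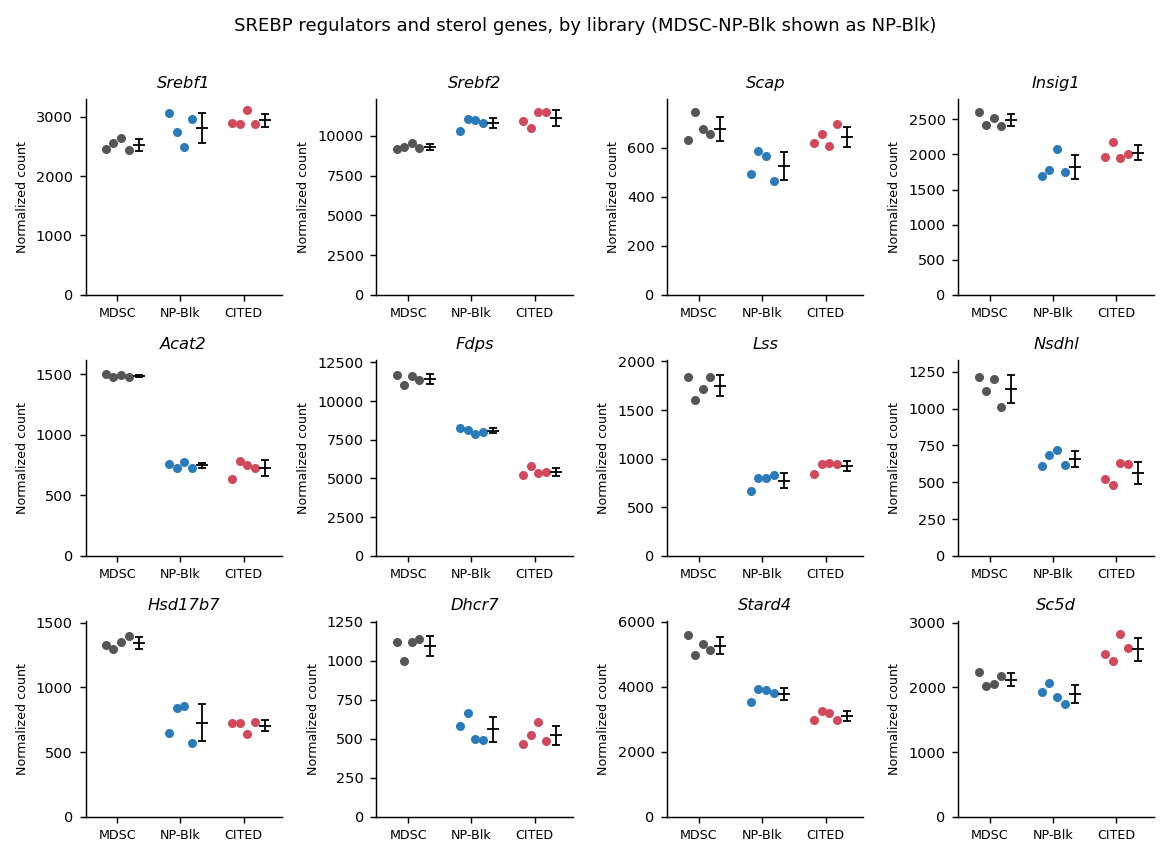
Normalized counts (y axis, from 0) of the 4 SREBP regulators and 8 sterol genes in each of the 12 libraries, as points, with the group mean and SD (n = 4) as a black bar. Srebf1 and Srebf2 are higher in the NP groups, Acat2, Nsdhl, Hsd17b7 and Dhcr7 are lower in both, which overlap each other, Fdps and Stard4 step down from MDSC through MDSC-NP-Blk to CITED, and Sc5d is highest in CITED.

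All 4 fatty acid synthesis genes fell in both NP groups. Acly, whose product splits citrate into the acetyl-CoA used by both routes, had the smallest change of them, from 18111 to 18708 normalized counts in unmodified cells to 14572 to 15912 with blank NPs and 13865 to 14424 in CITED, log2 fold changes of -0.28 and -0.37. Acaca (chr11:84020476-84292477, plus strand), the acetyl-CoA carboxylase gene that commits carbon to fatty acids, held 1749, 1521, 1875 and 1866 in MDSC, 702, 720, 846 and 703 in MDSC-NP-Blk and 662, 689, 734 and 707 in CITED. The NP groups overlapped each other and lay at 42.4% and 39.8% of MDSC, log2 fold changes of -1.24 (SE 0.0768) and -1.33 (SE 0.0774). Of the 31-base words of Acaca, 31.1% occur in other genes, mainly Gm5182.

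Fasn (chr11:120696672-120715995, minus strand) encodes fatty acid synthase, which builds palmitate. It held 5129, 4646, 5254 and 4938 normalized counts in MDSC, 1682, 2366, 2288 and 1799 in MDSC-NP-Blk and 1715, 1988, 1815 and 1814 in CITED. Every NP library lay below every MDSC library, and replicates 1 and 4 were the lower pair of MDSC-NP-Blk. The log2 fold changes were -1.29 (SE 0.0756, edgeR adjusted p = 8.2e-16) and -1.45 (SE 0.0763, adjusted p = 1.7e-17), and in MDSC-NP-Blk the value was -1.53 without replicates 2 and 3 and -1.10 without replicates 1 and 4.

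Elovl6 (chr3:129326004-129432144, plus strand), which encodes the elongase that takes palmitate to stearate, held 626, 599, 568 and 649 normalized counts in MDSC, 254, 336, 333 and 243 in MDSC-NP-Blk and 203, 248, 241 and 201 in CITED. Both NP groups lay below MDSC, and MDSC-NP-Blk replicate 4 lay within the CITED range. The log2 fold change was -1.06 in MDSC-NP-Blk (SE 0.106), the call nearest to the threshold there, and -1.45 in CITED (SE 0.11). The MDSC-NP-Blk call of Elovl6 was lost without replicates 1 and 4 (-0.87), or without either of them.

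Fasn and Acaca have the longest transcripts of the members, at 10789 and 9513 bases, and Elovl6 has 6134. With the correction for length, Acaca had -0.97 in MDSC-NP-Blk and -0.95 in CITED, so that its calls ended in both, Fasn had -0.99 and -1.03 and Elovl6 had -0.91 and -1.23, so that their calls ended in MDSC-NP-Blk and remained in CITED. All of these kept an adjusted p below 0.05. Of the 8 fatty acid genes, 5 were then called in CITED and 2 in MDSC-NP-Blk, instead of 6 and 5.

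**Figure D3:**
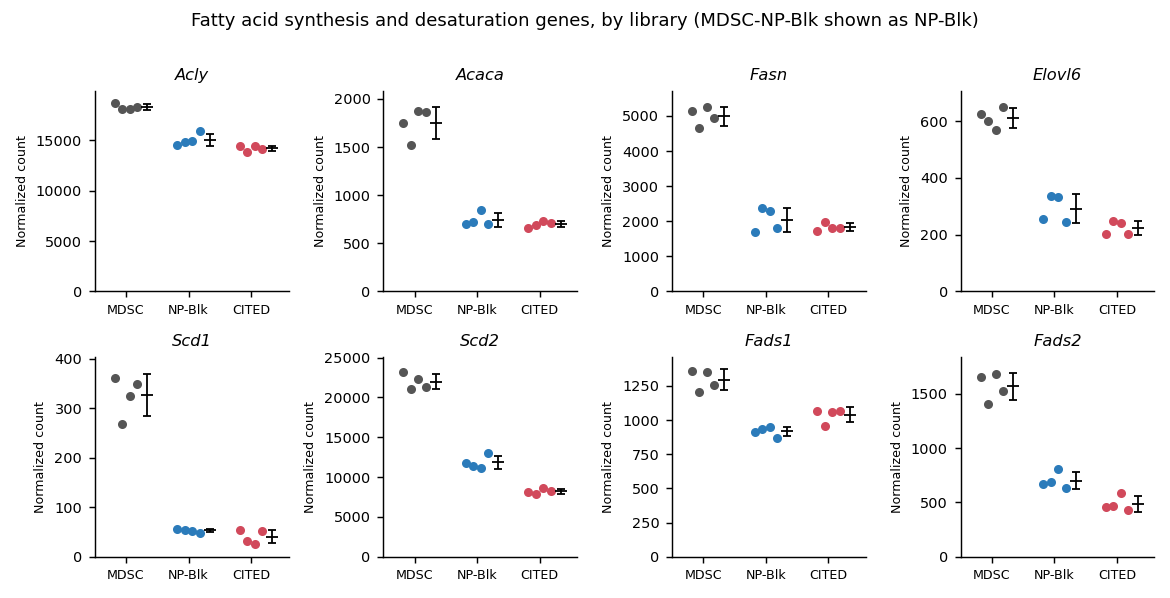
Normalized counts (y axis, from 0) of the 8 fatty acid synthesis and desaturation genes in each of the 12 libraries, as points, with the group mean and SD (n = 4) as a black bar. For each gene all 8 libraries with NPs lie below all 4 MDSC libraries, and the gap is widest for Scd1 (12.6% of MDSC in CITED by the fit) and narrow for Acly (77.6%) and Fads1 (80.1%).

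The 4 desaturases fell in both NP groups as well. Scd1 (chr19:44382894-44399154, minus strand), a stearoyl-CoA desaturase gene that makes oleate, had the largest log2 fold change of the 31 members in both comparisons and the lowest level per kilobase, with 362, 269, 326 and 349 normalized counts in MDSC, 56, 55, 53 and 49 in MDSC-NP-Blk and 53.8, 31.7, 26.6 and 51.1 in CITED. The NP groups overlapped and lay at 16.4% and 12.6% of MDSC, log2 fold changes of -2.61 (SE 0.173, edgeR adjusted p = 1.7e-14) and -2.99 (SE 0.181, adjusted p = 6.7e-16). Scd2 (chr19:44281613-44295303, plus strand), its neighbour and the abundant desaturase of these cells, held 23171, 21043, 22361 and 21324 in MDSC, 11791, 11440, 11139 and 13017 in MDSC-NP-Blk and 8159, 7860, 8576 and 8249 in CITED. The 3 groups were apart from each other, with log2 fold changes of -0.89 (SE 0.0496) and -1.42 (SE 0.0503, adjusted p = 5.4e-22). Of the 31-base words of Scd1 and Scd2, 5.87% and 4.72% occur in other genes, Scd3 and each other among them.

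Fads2 (chr19:10038130-10079203, minus strand), the delta-6 desaturase of polyunsaturated fatty acids, held 1655, 1411, 1680 and 1529 normalized counts in MDSC, 668, 691, 812 and 636 in MDSC-NP-Blk and 455, 471, 590 and 428 in CITED. The groups did not overlap, and the log2 fold changes were -1.16 (SE 0.0879) and -1.69 (SE 0.0909, edgeR adjusted p = 2.7e-17). Fads1, the delta-5 desaturase gene beside it, fell, with log2 fold changes of -0.50 in MDSC-NP-Blk and -0.32 in CITED, from 1208 to 1362 in MDSC to 872 to 950 and 956 to 1068. With the correction for length, Scd1 had -2.52 and -2.85, Scd2 -0.77 and -1.24 and Fads2 -1.16 and -1.68 in MDSC-NP-Blk and CITED, which changed none of their calls.

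Rapamycin-loaded and blank NPs were then compared with each other, which asks what differed between cells that all carried NPs. In CITED against MDSC-NP-Blk, 0 of 31 members were called lower, beside 2.00% of all genes, and 0 higher, beside 0.651%, and DESeq2 also called 0. At an adjusted p below 0.05 from edgeR, 5 members were lower (11.4% of all genes) and 4 higher (10.5%). At an unadjusted p below 0.05, 6 members were lower and 6 higher with edgeR, beside 16.0% and 15.2% of all genes, and 7 and 7 with DESeq2, and the median over members was -0.04 against 0.00 over all genes. Without overlap between the groups, 5 members were lower (10.8% of all genes) and 5 higher (10.4%).

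The 5 lower members were Fdps, with a log2 fold change of -0.57 (SE 0.0466, edgeR adjusted p = 9.8e-12), Scd2 with -0.53 (SE 0.0497), Fads2 with -0.53 (SE 0.0925), Elovl6 with -0.40 (SE 0.114) and Stard4 with -0.29 (SE 0.0529). Thus each of these was already lower in MDSC-NP-Blk than in MDSC and was lower again in CITED. Fdps was the member nearest to the fold threshold. The 4 higher members were Sc5d with 0.45 (SE 0.0614, edgeR adjusted p = 6.3e-07), Scap with 0.29 (SE 0.0861), Lss with 0.25 (SE 0.0752) and Cyp51 with 0.24 (SE 0.0535). Sc5d stood at 1745 to 2059 normalized counts with blank NPs and 2400 to 2828 in CITED, and Cyp51 at 2744 to 3090 and 3334 to 3647. In both the CITED libraries were the higher ones without overlap.

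For the other 22 members the difference did not pass in the main fit. Among them, Fads1 (0.18, SE 0.069) was higher in CITED without overlap, and it passed with DESeq2 (0.18) and with the length correction (0.20). Fasn had -0.15 (SE 0.0766), Acaca -0.09 (SE 0.0792), Scd1 -0.38 (SE 0.205), Acat2 -0.05 (SE 0.0728) and Dhcr7 -0.11 (SE 0.0947), with the largest SE for Scd1. A miss of the threshold does not show that the groups were alike. These values moved with the pair of MDSC-NP-Blk libraries used. Without replicates 1 and 4, 12 members passed, 4 higher and 8 lower, beside 1983 and 2155 of 17461 genes. Fasn (-0.35), Nsdhl (-0.31) and Hsd17b7 (-0.27) were among those added, lower in CITED, whereas Scap, at 0.17, no longer passed. Without replicates 2 and 3, 11 passed, 6 higher and 5 lower, beside 1665 and 1794 of 17388 genes. Insig1 (0.24) was among those added, higher in CITED, and Elovl6, at -0.16, no longer passed. Fasn then had 0.07 and Hsd17b7 had 0.22, so that both changed sign between these fits. Tm7sf2 had -0.36 there and 0.02 without replicates 1 and 4.

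Group means fell from MDSC through MDSC-NP-Blk to CITED for 16 of the 31 members and were lowest in MDSC-NP-Blk for another 10, of which 7 had their highest mean in MDSC and 3 in CITED. Another 4 rose in the order MDSC, MDSC-NP-Blk, CITED, and Mvd was highest in MDSC-NP-Blk. For 7 members (Fdps, Lss, Stard4, Acly, Scd2, Fads1 and Fads2) no library of any group overlapped another group, as for 10.5% of all genes.

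Levels of different genes were compared per kilobase of canonical transcript. In MDSC the highest were Fdps at 8751 normalized counts per kilobase, Acly at 4153, Scd2 at 4028 and Srebf2 at 1836, and the lowest were Scd1 at 65 and Elovl6 at 99.5. Fdps, Acly, Scd2 and Srebf2 remained the highest 4 in both NP groups, and Elovl6 and Scd1 the lowest 2. In CITED, Fdps stood at 4163, Acly at 3221, Srebf2 at 2194 and Scd2 at 1505, so that Srebf2 and Scd2 changed places. Among the desaturases, Scd2 exceeded Scd1 per kilobase in every group, at 2172 against 10.6 in MDSC-NP-Blk and 1505 against 8.12 in CITED. Fads2 ranked 17 in MDSC at 484 per kilobase and 26 in CITED at 150.

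**Figure D4:**
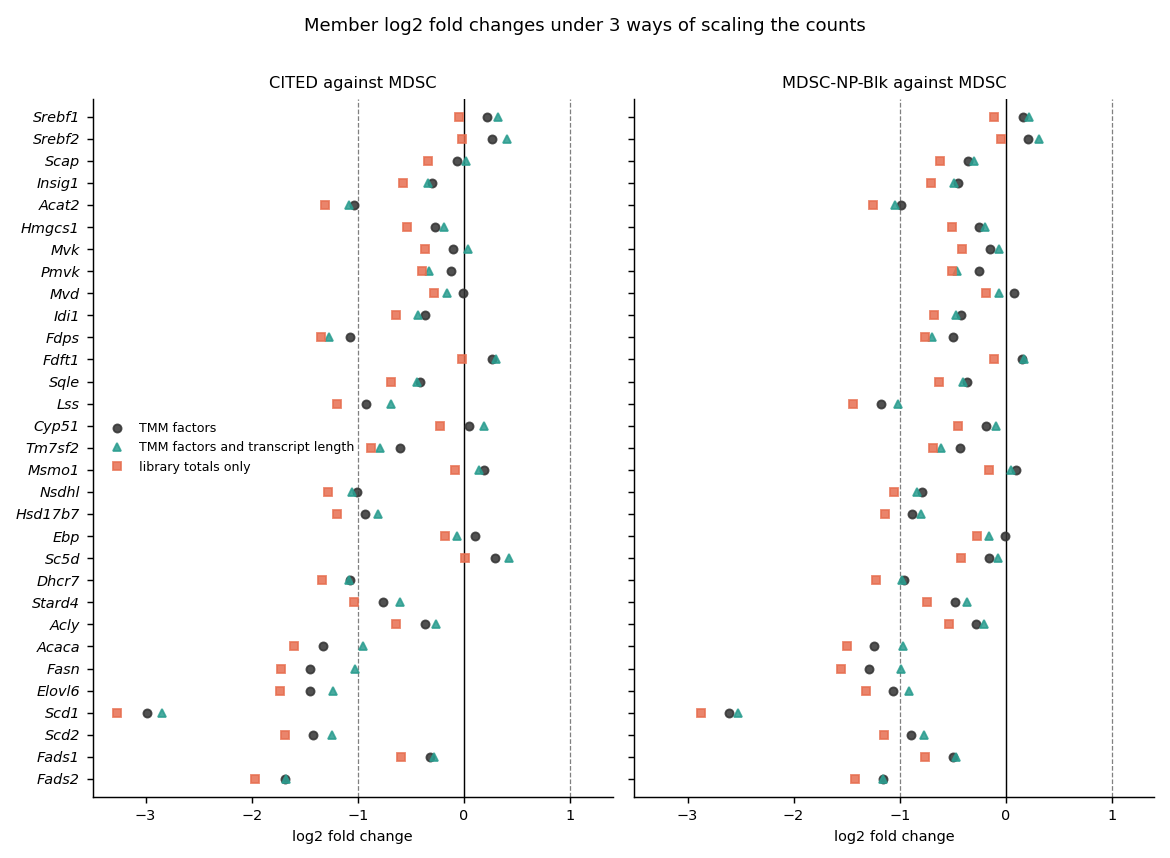
Log2 fold changes (x axis) of the 31 members (y axis) against MDSC with TMM factors, with TMM factors and a correction for transcript length, and with library totals alone. Library totals shift every member to the left, so that Srebf1, Srebf2, Fdft1 and Msmo1 change from positive to negative values, and the length correction moves Fasn (-1.45 to -1.03 in CITED) and Acaca (-1.33 to -0.95) to the right.

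Genes around the members were described with 7 lists, whose counts stand beside 22.2% of all genes lower and 22.2% higher in CITED, and 18.6% and 19.9% in MDSC-NP-Blk. Their values are given without the correction for transcript length. With it, 93 results of the named list genes over the comparisons stayed on the same side of the adjusted p. Another 3 came to pass, 3 no longer passed and 0 reversed. With library totals alone, the medians of all 7 lists were below 0, between -0.46 and -0.06 in CITED and between -0.39 and -0.15 in MDSC-NP-Blk. Under that scaling, 35.8% of all genes were lower and 12.4% higher in CITED, and 34.5% and 9.40% in MDSC-NP-Blk. In the list of other lipogenic enzymes, 8 of 20 genes were lower and 2 higher in CITED, and 6 were lower and 2 higher in MDSC-NP-Blk. Acss2, the cytosolic acetyl-CoA synthetase gene and an SREBP target, fell from 995 to 1022 normalized counts in MDSC to 461 to 608 and 484 to 562, log2 fold changes of -0.99 in MDSC-NP-Blk (SE 0.0828) and -0.97 in CITED (SE 0.0832). Acacb, the other acetyl-CoA carboxylase gene, was called lower in both (-1.61 and -2.37) at low levels, 24.8 to 35.1 in MDSC and 0.965 to 14.6 in CITED. Acat1, the mitochondrial thiolase gene, fell by 0.43 in each.

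In the list for SREBP processing and sterol-regulated degradation, 3 of 12 genes were lower and 3 higher in CITED, and 2 lower and 3 higher in MDSC-NP-Blk. Aup1 (0.75 and 0.96), which takes part in degradation at the endoplasmic reticulum, rose in MDSC-NP-Blk and CITED. Tmem97 (-0.32 and -0.66), a sterol-regulated membrane protein gene, and Erlin1 (-0.30 and -0.61), which restrains SREBP activation, fell. Of 13 genes of the non-sterol branch, 3 were lower and 4 higher in CITED, and 3 lower and 1 higher in MDSC-NP-Blk. Pdss1 (-0.65 and -1.39), needed for the ubiquinone side chain, and Pggt1b (-0.40 and -0.47), a prenyltransferase subunit gene, fell in MDSC-NP-Blk and CITED, and Rce1 (0.31 and 0.67), the protease gene for prenylated proteins, rose.

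Of 19 sterol efflux, storage and traffic genes, 10 were higher and 3 lower in CITED, with a median of 0.16, and with library totals alone 5 were higher and 6 lower, with a median of -0.12 against -0.32 over all genes. In MDSC-NP-Blk 8 were higher and 6 lower, with a median of -0.02. Npc2, the lysosomal cholesterol carrier gene, was called higher in both, with 8166 to 8555 normalized counts without NPs, 16037 to 18209 with blank NPs and 22118 to 24885 in CITED, means of 8341 ± 164, 17107 ± 1157 and 23618 ± 1461 (SD, n = 4). Nr1h2, which encodes LXR beta, rose by 0.52 and 0.68, Tspo by 0.42 and 0.79, and Abca1, the cholesterol efflux transporter gene, by 0.82 and 0.36. Nceh1 (-0.63 and -0.58), a cholesteryl ester hydrolase gene, fell. Ch25h, the cholesterol 25-hydroxylase gene, held 130 to 149 without NPs, 50.2 to 64.7 with blank NPs and 112 to 157 in CITED, so that it was called lower in MDSC-NP-Blk (-1.25) and called higher in CITED against MDSC-NP-Blk (1.22). Lipa, the lysosomal acid lipase gene, fell by 0.34 in MDSC-NP-Blk and rose by 0.16 in CITED, the latter at -0.12 with library totals alone.

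Genes for fatty acid activation, triglycerides and lipid droplets were higher for 9 of 18 and lower for 5 in CITED, and higher for 7 and lower for 4 in MDSC-NP-Blk. With library totals alone, 7 were higher and 7 lower in CITED, and 5 higher and 9 lower in MDSC-NP-Blk. The lipid droplet coat gene Plin2 rose from 3797 to 4310 normalized counts in unmodified cells to 6055 to 6657 with blank NPs and 9065 to 9767 in CITED, log2 fold changes of 0.63 (SE 0.0496) and 1.19 (SE 0.0499). Hilpda, an inhibitor of triglyceride lipase, rose by 1.16 and 1.39, and the lipase gene Pnpla2 itself by 0.94 in each. Mgll, the monoglyceride lipase gene, rose by 0.78 in CITED and had 0.12 in MDSC-NP-Blk, whereas Agpat2, an acyltransferase gene of glycerolipid synthesis, fell by 0.49 in CITED and had 0.09 in MDSC-NP-Blk. The acyl-CoA synthetase genes Acsl1 (-0.34 and -0.90) and Acsl3 (-0.76 and -0.75) fell in both.

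Of 20 fatty acid oxidation genes tested, 5 were higher and 7 lower in CITED, and 7 higher and 1 lower in MDSC-NP-Blk. With library totals alone, 1 was higher and 11 lower in CITED, and 1 higher and 7 lower in MDSC-NP-Blk. Acadm rose by 0.46 and 0.45 and Ppard by 0.38 and 0.39, and Pparg fell by 0.56 in CITED and had 0.09 in MDSC-NP-Blk. Ppara was below the count minimum and was not tested. In the list for the mTORC1 branch, 6 of 15 were lower and 5 higher in each. Mtor (-0.61 and -0.52), Rptor (-0.65 and -0.64) and Mlst8 (-0.52 and -0.92), which encode the kinase and its partners, fell in MDSC-NP-Blk and CITED, and Akt2 (0.53 and 0.55) and Eif4ebp1 (0.86 and 0.92) rose. Ddit4, an mTORC1 inhibitor gene, rose by 0.66 in MDSC-NP-Blk, had -0.15 in CITED and was lower in CITED than in MDSC-NP-Blk (-0.81). In MDSC-NP-Blk replicates 1 to 4, Ddit4 held 2997, 2364, 2255 and 3545 normalized counts, against 1635 to 1853 in MDSC. Eif4ebp1 held 4804, 3607, 3293 and 4811, against 2187 to 2407. Replicates 1 and 4 were thus the higher pair for both genes.

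**Figure D5:**
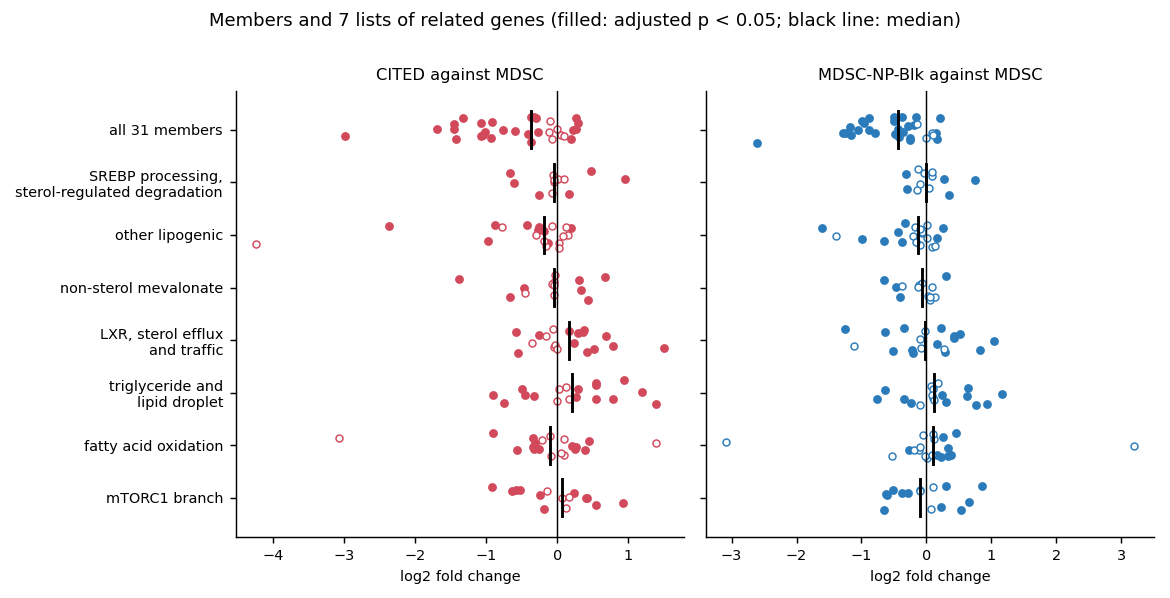
Log2 fold changes (x axis) against MDSC of the 31 members and of the genes tested in 7 related lists (y axis, points spread vertically for display), filled where the adjusted p is below 0.05, with the median as a black line. The members have medians of -0.37 and -0.43, and the lists lie between -0.18 and 0.22 in CITED and between -0.13 and 0.12 in MDSC-NP-Blk.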

How the data were processed

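Whole-number counts per gene symbol for 12 libraries were deposited by the authors, who, per their methods and processing notes, quantified paired reads of 150 bases with Salmon 1.4.0 against GENCODE transcripts of GRCm39 with decoys and summed them with tximport in R 4.3.2. The GENCODE release is not given in the sources used here. The counts were neither normalized nor filtered, and 1 entry without a symbol (0 counts) was left out. Groups came from the sample labels.

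The 17676 genes whose counts summed to 2 or more were fitted in R 4.3.3 with edgeR 4.0.16 (TMM factors, group as the only term, glmQLFit and glmQLFTest, robust estimation off), with Benjamini-Hochberg adjustment over all genes tested. The biological coefficient of variation was 9.03%. SEs were obtained from the log2 fold change and its F statistic, as their ratio after a square root of F. Calls required an adjusted p below 0.05 and a log2 fold change of at least 1 in size, as in the study, whose tool, DESeq2, was an alternative (version 1.42.0). Other alternatives were other scaling factors, library totals, count filters, the 8 libraries of a comparison, a replicate block, a loess correction for canonical transcript length (span 0.5), robust estimation, a test against the fold threshold and each library left out. Fits without a pair of MDSC-NP-Blk libraries were added after seeing the data. The steps were tested on simulated data. Libraries held 20604809 to 37855478 counts.

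The members, related lists, markers and tests were chosen with earlier results of these data known. Members received values for every library where called, among the 4 regulators, or nearest to the fold threshold. From each related list, up to 3 genes with the lowest p in each direction and comparison, and any called, could be named. Promoters and genes are from GENCODE release 39 on GRCm39. Shared sequence is the percent of a gene's 31-base words found in transcripts of other genes. Figures used Python 3.11.15 and matplotlib 3.10.9.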

Additional observations from a re-analysis of the deposited data

Results flagged for a closer look

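In groups of 4, a library was noted where its gap to the nearest other library, as a share of the group's range, exceeded Dixon's 95% critical value. Of 93 member groups, 9 were noted, where chance alone would note about 5% of groups. Srebf1 had 3106 normalized counts in CITED replicate 3, against 2872 to 2898 in the others. Fdft1 was noted in MDSC-NP-Blk replicate 1 (2340, others 2129 to 2146) and in CITED replicate 4 (2135, others 2409 to 2447), the latter within the MDSC-NP-Blk range. Lss had 846 in CITED replicate 1 (others 946 to 956), Msmo1 had 4017 in CITED replicate 2 (others 3580 to 3632) and Hsd17b7 had 638 in CITED replicate 3 (others 724 to 730). Ebp had 822 in MDSC replicate 2 (others 710 to 715), Acaca had 846 in MDSC-NP-Blk replicate 3 (others 702 to 720), and Fads1 had 956 in CITED replicate 2 (others 1061 to 1068). Among 99 groups of the related genes named, 5 were noted. These were Pdss1 in MDSC replicate 3 (73.5, others 99.7 to 104), Pggt1b in CITED replicate 1 (600, others 562 to 565) and Abca1 in MDSC replicate 2 (699, others 1049 to 1112). The other two were Acsl3 in MDSC-NP-Blk replicate 4 (205, others 262 to 266) and Mlst8 in MDSC-NP-Blk replicate 3 (441, others 369 to 380).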

How the results depend on the processing

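The number of members called stayed within 1.5 times its value under every alternative except 3. The test against a log2 fold change of 1 called 6 of the 10 members in CITED against MDSC, all fatty acid genes, and 3 of the 6 in MDSC-NP-Blk against MDSC, by its construction, and library totals alone called 11 in MDSC-NP-Blk against MDSC. Fits that each left out 1 library called 8 to 10 members in CITED against MDSC, 5 to 7 in MDSC-NP-Blk against MDSC and 0 in CITED against MDSC-NP-Blk, and 25, 24 to 27 and 8 to 10 had an adjusted p below 0.05. Between MDSC-NP-Blk and MDSC, the fit without replicates 2 and 3 of MDSC-NP-Blk called 9 and the fit without replicates 1 and 4 called 5. All of these were lower, beside 585 of 17388 and 399 of 17461 genes called lower in these fits. Among single genes, library totals alone reversed the direction for CITED against MDSC of Srebf1 (-0.05), Srebf2 (-0.02), Fdft1 (-0.02), Cyp51 (-0.23), Msmo1 (-0.08), Ebp (-0.18) and Lipa (-0.12), and for MDSC-NP-Blk against MDSC of Srebf1 (-0.11), Srebf2 (-0.05), Mvd (-0.19), Fdft1 (-0.11), Msmo1 (-0.16), Mgll (-0.14) and Agpat2 (-0.17). Without replicates 2 and 3 of MDSC-NP-Blk, Eif4ebp1 in CITED against MDSC-NP-Blk was -0.16. With library totals alone, all genes were called 272 higher and 1891 lower in CITED against MDSC, instead of 580 and 1185, and 146 and 1060 in MDSC-NP-Blk against MDSC, instead of 333 and 505. Libraries with the same replicate number did not deviate together (r of -0.071 to 0.165, other pairs -0.174 to 0.193, 5 of 12 libraries closest to their own number). A replicate block called 10, 6 and 0 members, and 25, 27 and 10 passed the adjusted p. The block with the length correction called 9, 4 and 0. Depth limits precision most for Scd1, whose lowest library held 26.6 normalized counts.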
